A study of Homo sapiens with 9 samples.

Results

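The genes described here are 10 inflammatory and immediate early genes, IL1RN, LCP2, FOS, JUN, CCL2, AIM2, CCR7, CXCL2, THBS1, and CXCL8, together with all ChIRP-seq peaks that lie within 100 kb of their starts. The members and their hg19 starts were set by a list that was drawn up with earlier results of these data known. Expression after SRA knockdown, which the study also measured, was not analysed here. Of 20698 listed peaks in hg19, 17 lay within 100 kb of the start of one of these genes. Of 4550 SRA-binding regions, 3 did. ChIRP pulls down chromatin with biotinylated oligonucleotides that hybridize to an RNA. The lncRNA SRA was the target in 3 samples of K562, an established human erythroleukemia cell line, and the bacterial LacZ transcript was the control target in 3 samples. The labels give no treatment of the cells, and the methods call the samples biological triplicates. For every SRA and LacZ sample a list of peaks called by MACS was read.

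SRA, the steroid receptor RNA activator, was first described as an RNA coactivator of steroid receptors and has since been found in complexes with chromatin proteins. FOS and JUN are immediate early genes, which are transcribed within minutes of a stimulus, and their proteins dimerize into the transcription factor AP-1. AP-1 and NF-κB act at the promoters of many chemokine and cytokine genes. Chemokines are small secreted proteins that attract leukocytes through G-protein coupled receptors.

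Lists 1, 2, and 3 numbered 4982, 4946, and 5187 peaks for SRA, and 2676, 2617, and 290 peaks for LacZ. LacZ list 3 stood apart, with a median peak width of 1114 bp against 155 to 158 bp in the other lists. Wherever peaks of different SRA lists overlapped, in 8316 pairs, both edges were identical in 8316 of them, while the score was the same in 1587, or 19.1%. With all these edges shared, the positions of peaks were not independent between SRA lists, and the SRA lists were treated as 1 sample unless stated. Presence in 2 or 3 SRA lists is thus not support from independent lists. How the lists came to share edges was not tested. A position found in 2 or 3 SRA lists that no LacZ peak overlaps is called an SRA-binding region. Reads were not analysed here, and the peak lists do not give the depth of sequencing. Each peak carries a MACS score, whose lowest value of 40 in every list was taken to mean −log10 p multiplied by 10. Gene starts were given to the nearest kb, so each distance is uncertain by 0.5 kb. Distances run from the start of the gene to the nearest edge of the peak.

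No peak of any list lay within 15.9 kb of the hg19 starts used here, and the promoters are shown for the motifs they hold. RefSeq promoters were found for 8 of the 10 genes. IL1RN has 3, with starts at 9.5 and 9.6 kb from the first, and only 1 IL1RN start was used for distances, so a peak may lie nearer to another start of this gene. The 5 stretches below, of 150 bases each, come from promoters that hold at least 1 of the motifs searched. Counted from the start, those of CXCL8, CXCL2, and FOS run from −150 to −1. That of AIM2 runs from −175 to −26, and that of the first IL1RN promoter from −243 to −94. Another IL1RN promoter, which holds TATAAA, is not shown. They are in GRCh38.p14 coordinates, which cannot be set against the hg19 coordinates of the peaks. The stretches are written 5′ to 3′ on the strand of the gene, with the motifs in capitals.
CXCL8, chr4:73740419-73740568, plus strand: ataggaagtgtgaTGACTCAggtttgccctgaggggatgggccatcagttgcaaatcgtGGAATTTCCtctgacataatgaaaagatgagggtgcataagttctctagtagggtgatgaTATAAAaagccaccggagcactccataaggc
CXCL2, chr4:74099196-74099345, minus strand: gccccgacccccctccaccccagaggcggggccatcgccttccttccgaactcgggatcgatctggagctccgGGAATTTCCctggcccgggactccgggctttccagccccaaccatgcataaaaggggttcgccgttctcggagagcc
FOS, chr14:75278678-75278827, plus strand: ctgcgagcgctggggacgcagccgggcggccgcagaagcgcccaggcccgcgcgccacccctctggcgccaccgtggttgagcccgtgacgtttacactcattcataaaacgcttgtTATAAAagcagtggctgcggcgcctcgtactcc
AIM2, chr1:159076792-159076941, minus strand: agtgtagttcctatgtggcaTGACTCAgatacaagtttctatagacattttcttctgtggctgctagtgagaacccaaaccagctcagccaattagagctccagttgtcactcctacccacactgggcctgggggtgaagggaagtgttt
IL1RN, chr2:113117728-113117877, plus strand: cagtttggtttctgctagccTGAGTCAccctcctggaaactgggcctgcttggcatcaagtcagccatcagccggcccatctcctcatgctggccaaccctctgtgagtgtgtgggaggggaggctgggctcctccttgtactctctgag

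Exact matches to each motif were searched on both strands from 250 bases before to 50 bases after each start. Sites outside this span, and variants of a motif, were not counted. The AP-1 motif TGACTCA was present in promoters of CXCL8, AIM2, and IL1RN, 3 of the 10 promoters listed for these genes, and in 4.95% of the 35116 promoters in the table. In IL1RN it is read on the other strand, as TGAGTCA. The NF-κB motif GGAATTTCC was present in CXCL8 and CXCL2, 2 of the 10 promoters, and in 0.461% of all promoters, starting 91 bases before the start of CXCL8 and 77 bases before that of CXCL2. The TATA box TATAAA was present in CXCL8, FOS, and 1 of the 3 promoters listed for IL1RN, and in 11.5% of all promoters. Of the motifs searched, CXCL8 thus held the AP-1, NF-κB, and TATA motifs together. Within this span no member promoter held the cyclic AMP response element TGACGTCA, the other NF-κB motif GGGACTTTC, or the serum response element core CCATATTAG. These were in 1.85, 0.387, and 0.0968% of all promoters. Whether such sites lie farther upstream was not tested. JUN, LCP2, and THBS1 held no exact match to any of the motifs searched. The 300 bases around the start held 30 CpG dinucleotides in FOS, 29 in THBS1, 22 in CXCL2, and 16 in JUN, above the median of 14 over all promoters. AIM2 and the first IL1RN promoter each held 2, CXCL8 held 4, and LCP2 held 5. The matches describe the sequence and are not shown to be bound in K562.

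Within 100 kb, 2 of the 10 genes had an SRA-binding region, IL1RN and THBS1. In all, 200 kb tiles that held an SRA-binding region were 20.9% of the 15151 tiles of chromosomes 1 to 22 and X, so the share among these genes was near that of windows of the same length elsewhere. A peak of any SRA list was present for 3 genes, the third being CXCL8, against 30.8% of tiles. A peak of any LacZ list was present for 5 genes, FOS, CCL2, CCR7, THBS1, and CXCL8, against 25.0% of tiles. Of these 5, LacZ list 1 accounted for 4 genes, list 2 for 2, and list 3 for none, and without LacZ list 1 the number was 2. Each of these LacZ peaks was in 1 list only, so none would meet the rule of 2 lists used for SRA-binding regions. No peak of either probe set lay near 4 genes, LCP2, JUN, AIM2, and CXCL2. IL1RN alone, 1 of 10 genes, had an SRA-binding region and no LacZ peak in the window, against 11.1% of tiles. Tiles include gaps of the assembly and gene-poor sequence, and gene density was not matched.

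IL1RN encodes the interleukin-1 receptor antagonist, a secreted protein that blocks the interleukin-1 receptor. Its start is at 113875 kb of chromosome 2, and the neighbouring protein-coding genes are IL1F10 and PSD4. The SRA lists held 4 peak positions within 100 kb, more than for any of the other genes, and all 4 lay on the side towards which IL1RN is transcribed, which is that of PSD4. The region in all 3 SRA lists was at 113919809 to 113919958, 44.8 kb from the start, with scores of 41.35, 43.73, and 42.55 in lists 1, 2, and 3. All 3 scores were below the median of their list, at percentiles 20.3, 48.6, and 34.3. The second region was at 113966604 to 113966771, 91.6 kb from the start, and was in lists 2 and 3 with scores of 41.20 and 43.99. Of the regions near these genes it was the closest to the limit of the window. The other positions were in 1 list each. A peak of list 3, the closest to any of the 10 starts, lay 15.9 kb away with a score of 43.14. A peak of list 1 lay 47.1 kb away with a score of 41.14, and 2.2 kb from the region in all 3 lists. The LacZ lists held no peak within 100 kb of IL1RN. The nearest LacZ peak, of list 2, lay just outside, at 121.0 kb with a score of 42.08. Further out on the other side, an SRA-binding region in all 3 lists at 199.6 kb and a LacZ peak of list 1 at 198.4 kb were separated by 1.1 kb.

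THBS1 encodes thrombospondin 1, a secreted matrix glycoprotein that platelets release and that binds cells and inhibits angiogenesis. Its start is at 39873 kb of chromosome 15. Its only SRA-binding region within 100 kb, at 39822916 to 39823048, was in all 3 SRA lists and lay upstream of the gene at −49.95 kb, where the minus marks lower coordinates. With the uncertainty of 0.5 kb in the start, it could not be placed inside or outside a window of 50 kb. Its score was 55.70 in each of the 3 lists, at percentiles 91.9, 91.5, and 91.4, and was the highest score within 100 kb of any of the genes. Of the 1839 regions in all 3 SRA lists, 293, or 15.9%, likewise had the same score in all 3. A LacZ peak of list 1 lay on the same side, at 39835549 to 39835682, 37.3 kb from the start, with a score of 43.23 at percentile 39.3. The LacZ peak was thus nearer to THBS1 than the SRA-binding region was, and 12.5 kb of sequence without a peak separated them.

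CXCL8, also known as interleukin-8, and CXCL2 encode CXC chemokines that attract neutrophils. They lie on chromosome 4 with starts at 74606 and 74965 kb, 359 kb apart. In the RefSeq gene order, 7 protein-coding genes lie between them, CXCL6, PF4V1, CXCL1, PF4, PPBP, CXCL5, and CXCL3, and all 7 are CXC chemokines. Between both starts the SRA lists held no peak, while LacZ lists 1 and 2 held 1 peak each and LacZ list 3 held none. The LacZ peaks lay 63.1 kb from the start of CXCL8 with a score of 43.98 in list 1, and 74.3 kb from it with a score of 42.05 in list 2. Upstream of CXCL8, SRA list 2 held a peak at 72.8 kb with a score of 43.10, and lists 1 and 3 held none there. The nearest SRA-binding region to CXCL8 was 457.7 kb away. CXCL2 had no peak of any list within 100 kb, its nearest LacZ peak was at 284.5 kb, and its nearest SRA-binding region, at 816.7 kb, was the farthest among the 10 genes.

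CCL2 encodes monocyte chemoattractant protein 1, and CCR7 encodes a chemokine receptor that guides lymphocytes and dendritic cells to lymph nodes. Both are on chromosome 17, with starts at 32582 and 38722 kb. CCL2 is followed in the gene order by CCL7, CCL11, CCL8, CCL13, and CCL1. The only peak within 100 kb of CCL2 was a LacZ peak of list 1, upstream at 53.3 kb with a score of 43.22, and the nearest SRA-binding region was 671.5 kb away. For CCR7 too the window held only a LacZ peak of list 1, at 24.2 kb with a score of 42.01, the closest of all LacZ peaks to any of the starts. SRA-binding regions near CCR7 began at 214.1 kb, where lists 1 and 3 held a peak with scores of 43.70 and 41.50. A second region, also in lists 1 and 3, lay at 238.9 kb with scores of 41.69 and 40.68.

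For FOS, at 75745 kb of chromosome 14, the only peak in the window was a LacZ peak of list 2, upstream at 70.7 kb with a score of 41.07. A peak of SRA list 2 alone was at 258.2 kb with a score of 41.74, and the nearest SRA-binding region was at 784.5 kb. JUN, at 59250 kb of chromosome 1, had no peak within 100 kb. An SRA-binding region in all 3 lists lay 259.4 kb from its start, with scores of 45.81, 41.82, and 44.61, and a LacZ peak of list 1 was nearer, at 181.5 kb with a score of 45.79. Neither partner of AP-1 thus had an SRA peak of any list in its window.

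AIM2 encodes a sensor of cytosolic DNA that assembles an inflammasome, and LCP2 encodes SLP-76, an adaptor protein in signalling from the T cell receptor and from platelet receptors. AIM2 starts at 159047 kb of chromosome 1 and LCP2 at 169725 kb of chromosome 5. No peak of any list lay within 300 kb of AIM2, where the nearest LacZ peak was at 457.3 kb and the nearest SRA-binding region at 729.8 kb. For LCP2 the nearest SRA-binding region was at 294.3 kb, in lists 1 and 3 with scores of 40.28 and 48.89, and the nearest LacZ peak was at 375.5 kb.

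Over the 10 genes, the nearest SRA-binding region was between 44.8 and 816.7 kb away, with a median of 376.0 kb. The nearest peak of any SRA list was between 15.9 and 729.8 kb away, with a median of 258.8 kb. For LacZ, the nearest peak of any list was between 24.2 and 457.3 kb away, with a median of 95.9 kb. It was in 1 list only for every gene, whereas an SRA-binding region had to be in 2 or 3 lists. The LacZ median is thus to be set beside that of any SRA list. It rested on LacZ lists 1 and 2, and was 398.7 kb without list 1 and 189.9 kb without list 2. A LacZ peak was nearer than any SRA-binding region, and nearer than any SRA peak, for 8 of the 10 genes, the exceptions being IL1RN and LCP2. Without LacZ list 1, the count was 4 against SRA-binding regions, for FOS, AIM2, CXCL2, and CXCL8, and 3 against any SRA peak, for FOS, AIM2, and CXCL2. For THBS1 the nearest LacZ peak was then at 565.8 kb and for JUN at 512.9 kb, both farther than the SRA-binding region. Genome-wide there were 5502 distinct LacZ positions, 4550 SRA-binding regions, and 8658 distinct SRA positions. The distances and the counts are a description, because the SRA lists were treated as 1 sample and distances from other gene starts were not measured. Whether they differ from those of other genes was not tested.

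The windows held 3, 4, and 4 peaks of SRA lists 1, 2, and 3 and 4, 2, and 0 peaks of LacZ lists 1, 2, and 3. As a share of each list this was 0.0602, 0.0809, and 0.0771% of the SRA peaks and 0.149, 0.0764, and 0% of the LacZ peaks. The 95% Wilson intervals, for counting error only, reached from 0.0205 to 0.208% over the SRA lists and from 0.0210 to 0.384% over LacZ lists 1 and 2. For LacZ list 3 a count of 0 of 290 allows a share of up to 1.03%, taken as 3 counts of the total, and the Wilson upper limit is 1.31%. The mean SRA share of 0.0727% lay within the LacZ shares of 0.0753 ± 0.0747% (SD, n = 3), and the groups overlapped (two-sided exact permutation test, p = 1, where 3 lists against 3 cannot give a p below 0.1). This test takes the SRA lists as 3 samples. With the SRA lists as 1 sample the exact permutation p was 0.75, where the smallest that can be reached is 0.25. Neither form of the test could pass 0.05, so neither says whether the probe sets differ in these windows. Of the 6 SRA positions in the windows, 3 were in 1 list, 1 was in 2 lists, and 2 were in all 3 lists, against 4060, 2739, and 1859 positions genome-wide.

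The 11 listed SRA peaks within 100 kb were entries of 6 positions. At 1 of the 6 positions, the THBS1 region, the score was at or above the median of the list, in all 3 lists. At the other 5 positions every entry was below it, as were all 6 listed LacZ peaks. Median scores were 43.79, 43.90, and 44.31 in the SRA lists and 44.17, 44.12, and 44.88 in the LacZ lists.

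The surroundings of the genes differed when 1000 kb on either side was counted. IL1RN had 8 SRA-binding regions there, or 4.0 per Mb against 1.23 per Mb over chromosome 2, and CCR7 had 11, or 5.50 per Mb against 2.63 per Mb over chromosome 17. FOS had 2, or 1.0 per Mb against 0.44 per Mb on chromosome 14. The other 7 genes were below the density of their chromosome, with 4 regions for JUN, 2 each for AIM2 and THBS1, and 1 each for LCP2, CCL2, CXCL2, and CXCL8. LacZ positions were also denser than over the chromosome around IL1RN, with 3.0 against 1.64 per Mb, around CCR7, with 4.0 against 3.08 per Mb, and around FOS, with 2.0 against 0.51 per Mb. CXCL2 and CXCL8, with 1.5 against 1.24 per Mb, also had denser LacZ positions than their chromosome, while their SRA-binding regions were sparser. THBS1, with 2.0 against 1.92 per Mb, was near its chromosome in LacZ positions. CXCL2 and CXCL8 are not separate cases, because their windows overlap and share the same SRA-binding region and the same 3 LacZ positions. These densities are a description, with no share over other windows of this length. They rest on few positions, and the chromosome lengths include gaps of the assembly.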

How the data were processed

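The authors sequenced the ChIRP DNA as single-end reads, aligned them to hg19, and deposited MACS peaks separately per ChIRP sample. CASAVA 1.8.2, MACS, and deepTools are named in the submitters' processing notes. The aligner, the MACS version, and the control used for calling are not given in the sources used here. The score deposited by the authors is headed −log10 of the p-value, but its minimum of 40 is what 10 times −log10 gives for 0.0001. Other deposited values are peak starts and ends, printed 1-based. The 3 input samples were not analysed here.

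Gene starts in hg19, to the nearest kb, were part of the rule that defines the 10 genes. The genes, windows, and motifs were chosen with earlier results of these data known. All 10 genes are named. Neighbouring protein-coding genes, given for IL1RN and the chemokines, follow the GRCh38.p14 RefSeq order. Gene strand came from a GRCh38 annotation. Peaks sharing at least 1 bp were merged. SRA and LacZ shares were compared by an exact permutation test. The counting was tested on simulated lists, where 21 of 21 planted regions were recovered with 0 false regions. The depth is unknown from the lists and gave no measure of precision. Alternatives were other windows, support, scores, gaps, lists left out, and pairing, and leaving out lists for the nearest LacZ peak was added after seeing the data. Scripts ran under Python 3.11.15 with scipy 1.17.1, numpy 2.4.6, pandas 2.3.3, and matplotlib 3.10.9.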

Additional observations from a re-analysis of the deposited data

How the results depend on the processing

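The 2 genes with an SRA-binding region within 100 kb numbered 2 also when all 3 SRA lists had to hold the peak, when LacZ peaks were ignored, when gaps up to 500 bp were bridged, when distances ran to the peak centre, and with each list left out. Their number was 1 when only peaks reaching the median score of their list were kept, and 0 with the 290 highest scoring peaks of each list, as fewer peaks entered, and 6 within 500 kb. Within 50 kb it was 2 genes and 2 regions, or 1 and 1 with the THBS1 region outside, a setting added after seeing the data, and 2 genes had a LacZ peak in both cases. The 3 regions near the genes became 6 with a peak in any SRA list, 1 and 0 under these 2 score limits, 6 within 250 kb, 12 within 500 kb, and 2 to 3 with each list left out. The 5 genes with a LacZ peak became 2 within 50 kb, 10 within 500 kb, 0 under either score limit, and 2 to 5 with each LacZ list left out, the lowest without LacZ list 1. The median distance to the nearest SRA-binding region became 901.6 kb with a peak in all 3 SRA lists and 258.8 kb with a peak in any. With each list left out, chosen after seeing the data, the median distance to the nearest LacZ peak was 95.9 to 398.7 kb, and a LacZ peak was nearer than any SRA-binding region for 4 to 9 genes and nearer than any SRA peak for 3 to 8, the lowest counts and the highest median without LacZ list 1.

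The share of peaks in SRA minus LacZ lists was −0.0026 percentage points and had no stable sign. It was 0.0279 within 50 kb, or 0.0081 with the THBS1 region outside, 0.0767 within 500 kb, 0.0397 for peaks reaching the median score, 0.0000 with the 290 highest scoring peaks, and −0.0402 to 0.0345 with each list left out, the sign turning without LacZ list 1 and without SRA list 1. Paired by replicate number as a block it was −0.0026 (exact sign-flip permutation p = 1), with −0.0893, 0.0045, and 0.0771 in pairs 1, 2, and 3. Correlations of deviations were 0.047, −0.027, and −0.013 for lists of the same number, and from −0.072 to 0.059 for lists of different numbers. Not every list correlated best with its own number. Values this small cannot tell whether lists of the same number were prepared together. Over the alternatives the exact permutation p was from 0.1 to 1, and none could pass 0.05 in this design.

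The small number of peaks near the genes and the read depth, which the lists do not give, limit every comparison here. No gene positions in hg19 other than the 10 starts were used, so peaks could not be placed in exons, introns, or neighbouring genes.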
